A study of Mus musculus with 18 samples.

Results

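The LSm ring genes are the 8 mouse genes Lsm1 to Lsm8, each of which encodes a small protein that occupies a place in a ring-shaped complex. They were taken by symbol from a fixed list and matched to the Ensembl identifiers of the count table. The matching used no measured value, but the list was chosen with earlier results of these data known. All 8 had a row among the 51467 genes of the table, and all 8 were among the 12705 genes that passed the filter on low values (a minimum of 3 CPM in 3 or more of the libraries). CPM are counts scaled by the library total.

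The ring genes were followed across polysome gradients of embryonic stem cells (ESCs) of the mouse line V6.5. The cells were wild-type (WT) or carried a CRISPR-Cas9 knockout of Ddx6 (Ddx6 KO). All cells were cultured in serum medium with LIF and 2i, the inhibitors PD0325901 and CHIR99021, and all received cycloheximide, which arrests ribosomes, before lysis. Each gradient gave a monosome fraction, a low polysome fraction (2 to 4 ribosomes) and a high polysome fraction (4 or more ribosomes), and the 18 libraries formed 6 groups, each of 3 gradients. Clone 1 of the KO line supplied gradient 1 and clone 2 supplied the others, so a difference between clones cannot be told apart from a difference between gradients, and the labels do not say whether the gradients of a genotype came from separate cultures.

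LSm proteins are relatives of the Sm proteins of spliceosomal snRNPs. LSM1 joins LSM2 to LSM7 in a cytoplasmic ring that binds the 3′ end of deadenylated mRNAs with PATL1 and promotes decapping, whereas LSM8 joins the same partners in a nuclear ring that binds the 3′ end of U6 snRNA. DDX6, the helicase knocked out here, is a partner of the decapping machinery. Whether it acts on decay together with the ring that holds LSM1 was not tested here.

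The transcript sequence around each start codon is shown because it is the part of the mRNA from which ribosomes begin, and because the position on the gradient is read against the very short coding sequences that follow. Capitals mark the annotated start codon, with the 9 bases before it and the 9 coding bases after it, 5′ to 3′ on the strand of the gene, read from the Gencode transcript sequences (GRCm38).
Lsm1: agctcaaacATGaactatatg
Lsm2: gccagcaccATGctcttctac
Lsm3: gtttgaaacATGgcggacgac
Lsm4: gcagggaagATGcttcccttg
Lsm5: ggcgtggccATGgcggctaac
Lsm6: ttgttaaacATGagcctgcgg
Lsm7: ggcgacaagATGgcggacaaa
Lsm8: cccagcagcATGacgtctgct
Counting the A of the start codon as +1, the base at -3 was A in 7 of the 8 genes and G in Lsm5. Among 11542 tested genes with a complete gene model, 46.3% had A and 40.3% had G there. The base at +4 was G in 3 ring genes (Lsm3, Lsm5 and Lsm7), compared with 53.8% of the 11542 genes.

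The 8 genes lie at separate loci. On GRCm38, Lsm1 (ENSMUSG00000037296.7) spans chr8:25785288-25803975 on the plus strand and has the longest 3′ UTR of the family, 1877 nt. Lsm2 (ENSMUSG00000007050.17) spans chr17:34981880-34985891 (plus), Lsm3 (ENSMUSG00000034192.5) chr6:91515928-91522625 (plus), and Lsm4 (ENSMUSG00000031848.15) chr8:70673248-70678752 (plus). Lsm5 (ENSMUSG00000091625.8) spans chr6:56701063-56704710 (minus), Lsm6 (ENSMUSG00000031683.16) chr8:78804865-78821140 (minus), Lsm7 (ENSMUSG00000035215.9) chr10:80852821-80855209 (minus), and Lsm8 (ENSMUSG00000044155.11) chr6:18848579-18854053 (plus). Their coding sequences run from 243 nt in Lsm6 (80 residues) to 417 nt in Lsm4 (138 residues), whereas the median of the 11542 genes is 1348.5 nt. An ATG upstream of the start codon was present in the 5′ UTR of 4 ring genes (Lsm1, Lsm3, Lsm4 and Lsm6), compared with 49.5% of genes. None of the 8 annotated 3′ UTRs held AGCACTTA, the 8mer site of the ESCC (embryonic stem cell cell-cycle regulating) miRNAs, or either of its 7mers AGCACTT and GCACTTA, searched on the sense strand. Of the 11542 genes, 3.13% held the 8mer, 15.5% the first 7mer and 7.23% the second. The AU-rich motif TATTTAT was found in the 3′ UTR of Lsm8 alone, and in 27.3% of genes. These shares were not matched for 3′ UTR length, of which the median over genes was 945 nt. Lsm1 (1877 nt) and Lsm6 (1760 nt) had longer 3′ UTRs, and those of the other ring genes were 133 nt (Lsm7) to 362 nt (Lsm8).

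Several ring genes have processed pseudogenes, and the authors kept only uniquely mapped reads. Within the last 300 bases of the transcript, where 3′ end reads fall, Lsm5 matched Gm10074 at 99.0% identity over 103 bases and Lsm7 matched Gm10146 at 100% over 164 bases. Reads that fit both copies equally well would not be counted, so Lsm5 and Lsm7 may be undercounted, by an amount that was not measured, and their place in the order of levels is uncertain. The copies themselves received 87 counts (Gm10074) and 83 counts (Gm10146) over all 18 libraries. Lsm3 shares 175 bases of its 3′ end with the overlapping gene AC161456.1, which had 4 counts.

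As a check of the genotype labels, Ddx6 stood at 143 to 212 CPM in the 9 WT libraries. In the KO libraries it stood at 55.3 to 82.7 CPM in clone 1 and at 9.68 to 26.7 CPM in clone 2. Its log2 change averaged over the fractions was -2.77 ± 0.28 (SE; limma, adjusted p = 3.29e-08). The libraries held 2543617 to 11474550 gene counts, of which 4320 to 26798 fell on the ring genes. All 8 ESC markers were present in every library, with Pou5f1 lowest at 19.4 to 57.1 CPM, and summed to 2180 to 4180 CPM. Of 10 markers of differentiated or feeder cells, Sox1 was at 25.1 to 68.8 CPM and the other 9 did not exceed 6.45 CPM, with T, Foxa2 and Col1a2 at 0 in 8, 6 and 12 libraries. The list summed to 36.4 to 58.7 CPM in WT and 37.0 to 83.0 CPM in KO libraries, and its part in the results was not tested. In these bulk fractions, fewer cells of a type and less RNA per cell cannot be told apart.

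Summed over the 8 genes, the ring mRNAs took a larger share of the WT monosome and low polysome counts than of the WT high polysome counts. Their share of the low polysome was smaller in Ddx6 KO cells. Lsm4 (1117 CPM) and Lsm6 (838 CPM) had the highest means in the WT low polysome, so these sums weigh most on them. The summed counts of the 8 genes took 0.170%, 0.182% and 0.170% of gene counts in the WT monosome libraries of gradients 1 to 3. In the WT low polysome they took 0.313%, 0.287% and 0.269%, and in the WT high polysome 0.106%, 0.0960% and 0.0982%. In every WT gradient the share was thus largest in the low polysome. A share is taken of each library's own counts, so it does not give the amount of ring mRNA in a fraction. In KO gradients 1 to 3 the monosome shares were 0.227%, 0.204% and 0.217%, the low polysome shares 0.236%, 0.200% and 0.194%, and the high polysome shares 0.0848%, 0.0796% and 0.0690%. The KO profiles were flat between monosome and low polysome, with KO libraries above all WT libraries in the monosome and below all of them in both polysome fractions. Of the 8 genes, Lsm5 and Lsm8 alone were called higher in the KO monosome by limma (adjusted p under 0.05). From WT to KO, the mean monosome level went from 166 to 368 CPM for Lsm8 and from 43.8 to 75.2 CPM for Lsm5. That of Lsm4 went from 613 to 723 CPM without a call, so it also weighs on the sum. The means of Lsm2 and Lsm7 were lower in KO, and the median log2 change of the 8 genes there was 0.02. The summed share was not computed for other genes as a reference.

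**Figure D1:**
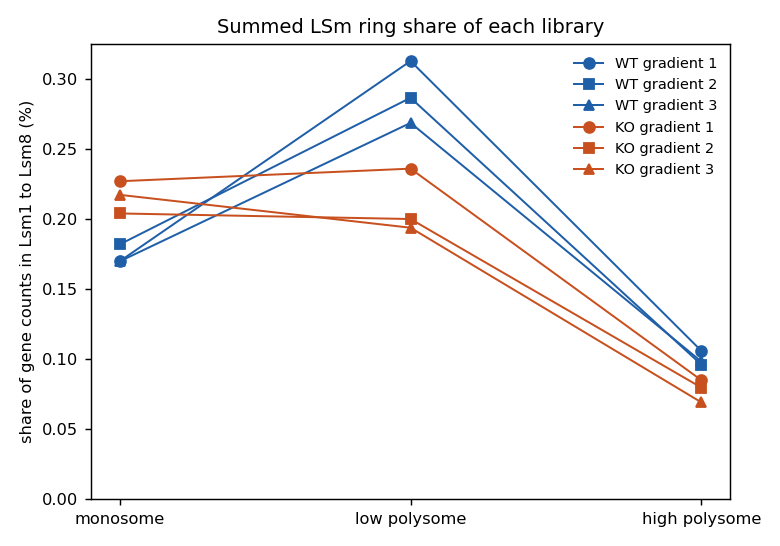
Share of gene counts (%, vertical axis from 0) that fell on Lsm1 to Lsm8 in each of the 18 libraries, by fraction, with 1 line per gradient (blue WT, orange Ddx6 KO). WT lines peak at the low polysome (0.269% to 0.313%) and KO lines run level from monosome to low polysome (0.194% to 0.236% at the low polysome).

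The members differed widely in level. Because each read marks 1 transcript end, CPM were compared between genes without division by length. In WT monosomes the mean level fell from Lsm4 (613 CPM) over Lsm6 (453), Lsm3 (210.3), Lsm2 (188), Lsm8 (166), Lsm1 (59.1) and Lsm5 (43.8) to Lsm7 (24.4). In that order the ranges of Lsm3, Lsm2 and Lsm8 overlapped with their neighbour, and all other neighbours were separate. Lsm4 came first and Lsm7 last in all 6 groups, with Lsm7 separate from its neighbour in every group but the WT low polysome. Lsm8 moved up the order in KO cells, from the fifth place in the WT monosome to the third in the KO monosome (368 CPM), where its range overlapped that of Lsm6. The highest mean was in the low polysome for 6 members in WT cells and for 3 members in KO cells (Lsm2, Lsm4 and Lsm6). The high polysome had the lowest mean for all 8 members in both genotypes.

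**Figure D2:**
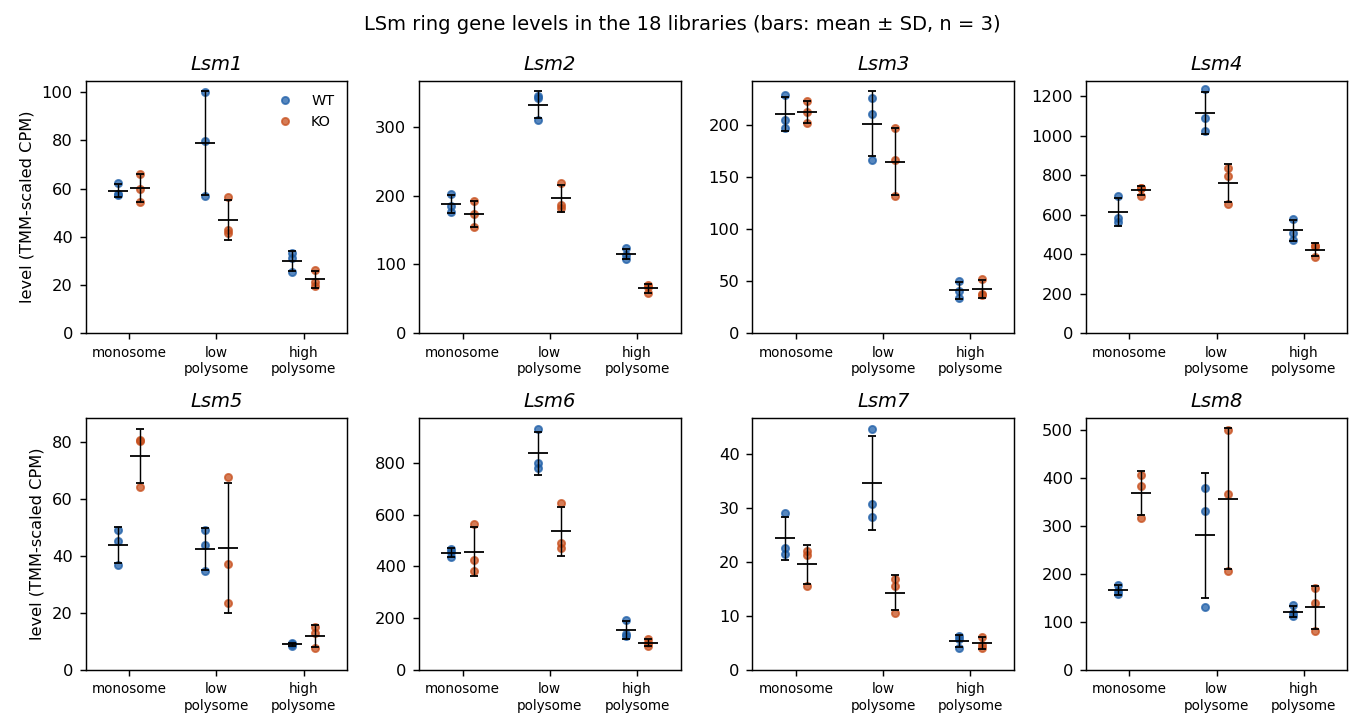
Levels of the 8 ring genes in TMM-scaled CPM (linear axes from 0, with a scale for each gene) by fraction of the gradient. Points are libraries (blue WT, orange Ddx6 KO) and bars are the mean ± SD of 3. KO points lie below all WT points in the low polysome for Lsm1, Lsm2, Lsm4, Lsm6 and Lsm7, and above them in the monosome for Lsm4, Lsm5 and Lsm8.

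The first comparison asked where on the WT gradients these mRNAs lay. From low to high polysome all 8 members fell (limma, adjusted p from 1.53e-10 to 0.00702), with log2 changes from -1.07 (Lsm8) to -2.68 (Lsm7). Among all genes tested 32.6% fell in this comparison, and among 677 other genes with a coding length of at most 417 nt, the longest in the family, 78.3% fell. The median log2 change was -1.88 for the ring genes, -1.38 for the short genes and -0.03 for all genes. The drop of Lsm8 lost its call without WT gradient 1 or WT gradient 2 (-0.97 to -0.71 on the log2 scale). From monosome to high polysome 6 members fell, against 32.2% of all genes and 64.5% of the short genes, the 2 others being Lsm4 at -0.24 ± 0.12 (SE; limma, adjusted p = 0.103) and Lsm8 at -0.45 ± 0.33 (adjusted p = 0.244). From monosome to low polysome 3 members rose, against 20.4% of all genes and 39.0% of the short genes. These were Lsm2 at 0.82 ± 0.12 (limma, adjusted p = 1.44e-05), Lsm4 at 0.87 ± 0.12 (adjusted p = 1.23e-05) and Lsm6 at 0.88 ± 0.16 (adjusted p = 0.000198). Without WT gradient 3, 5 members rose, with Lsm1 and Lsm8 added.

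In KO cells all 8 members were also lower in the high polysome than in the low polysome (limma, adjusted p from 1.16e-09 to 0.000796), where 28.0% of all genes and 80.2% of the short genes fell. All 8 were likewise lower in the high polysome than in monosomes of KO cells (33.6% of all genes and 85.1% of the short genes), with adjusted p from 3.34e-10 to 0.000237 in limma. The step from monosome to low polysome differed in that no member rose, against 20.4% of all genes and 7.39% of the short genes. At an unadjusted p under 0.05, Lsm1, Lsm3, Lsm5 and Lsm7 were lower in the KO low polysome than in the KO monosome. After adjustment Lsm5 alone passed, at -0.94 ± 0.25 (SE; limma, adjusted p = 0.00517), while 20.8% of all genes and 31.6% of the short genes fell.

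The next comparisons set KO against WT within each fraction, and they are given by the role of each protein. Lsm1 encodes the subunit found only in the cytoplasmic decapping ring. Its level was 62.1, 57.8 and 57.4 CPM in the WT monosome and 59.8, 54.5 and 66.0 CPM in the KO monosome, overlapping ranges with a log2 change of 0.03 ± 0.19 (SE; limma, adjusted p = 0.932). In the low polysome Lsm1 stood at 100.2, 79.7 and 57.0 CPM in WT and at 56.7, 41.5 and 42.7 CPM in KO. The KO libraries were all below the WT ones, narrowly between WT gradient 3 and KO gradient 1, and the log2 change was -0.73 ± 0.17 (limma, adjusted p = 0.00182). In the high polysome it stood at 33.1, 31.2 and 25.3 CPM in WT and at 26.1, 21.3 and 19.4 CPM in KO, ranges that overlapped, with a change of -0.42 ± 0.20 (limma, adjusted p = 0.0842).

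Lsm8 encodes the subunit that defines the nuclear U6 ring. In the monosome it stood at 177, 164 and 158 CPM in WT and at 405, 316 and 383 CPM in KO. The ranges were far apart, and the change was 1.14 ± 0.33 on the log2 scale (limma, adjusted p = 0.00905), or 2.21-fold. In the low polysome Lsm8 was at 378, 330.4 and 131 CPM in WT and at 499, 205 and 365 CPM in KO. WT gradient 3 was well under the other WT gradients, the ranges overlapped, and the change was 0.40 ± 0.32 (limma, adjusted p = 0.318), or -0.09 without WT gradient 3. In the high polysome it was at 117, 134 and 112 CPM in WT and at 171, 138 and 81.7 CPM in KO, with KO gradient 3 lowest and a change of 0.04 ± 0.33 (limma, adjusted p = 0.925).

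The number of Lsm8 counts per Lsm1 count, taken within a library, needs no scaling between libraries. In the monosome it was 2.81 ± 0.05 in WT and 6.12 ± 0.56 in KO (SD, n = 3), and all KO libraries were above all WT libraries (exact permutation test, two-sided p = 0.1, the smallest that 3 against 3 can give). In the low polysome it was 3.41 ± 0.97 in WT and 7.44 ± 2.16 in KO (SD, n = 3), again without overlap (exact permutation p = 0.1). The high polysome values, 4.09 ± 0.48 in WT and 5.75 ± 1.34 in KO (SD, n = 3), overlapped (exact permutation p = 0.3). The difference was 1.12 on the log2 scale in both light fractions. This ratio was chosen after the levels of both genes had been seen, and with 3 against 3 its test could not reach a p under 0.05.

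Lsm2 to Lsm7 encode the subunits common to both rings. Lsm2 stood at 346, 310.1 and 343 CPM in the WT low polysome and at 187, 219 and 183 CPM in the KO low polysome. In the high polysome it stood at 123, 108 and 113 CPM in WT and at 58.1, 69.9 and 67.4 CPM in KO. It was lower in every KO library of both polysome fractions, with log2 changes of -0.77 ± 0.12 (limma, adjusted p = 2.28e-05) and -0.82 ± 0.12 (adjusted p = 1.72e-05), and its monosome change was -0.13 ± 0.12 (adjusted p = 0.432).

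Lsm6, the shortest coding sequence of the family, was at 933, 799 and 782 CPM in the WT low polysome and at 472, 644 and 491 CPM in KO. In the high polysome it was at 194, 129 and 137 CPM in WT and at 103, 91.9 and 118 CPM in KO. The ranges were separate in both, and the log2 changes were -0.66 ± 0.16 (limma, adjusted p = 0.00233) and -0.54 ± 0.17 (adjusted p = 0.0130). The monosome ranges overlapped, at 434 to 468 CPM in WT and 382 to 564 CPM in KO.

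Lsm4, the most counted member, was at 1235, 1025 and 1089.9 CPM in the WT low polysome and at 795, 835 and 654 CPM in KO. It was lower in all KO low polysome libraries, with a log2 change of -0.56 ± 0.12 (limma, adjusted p = 0.000889). In the monosome its KO libraries were just above the WT ones (694 to 737 CPM against 564 to 694 CPM), and in the high polysome below them (384 to 442 CPM against 474 to 579 CPM). Neither difference passed the test, at 0.24 ± 0.12 (limma, adjusted p = 0.131) and -0.30 ± 0.12 (adjusted p = 0.0535). The monosome value passed with library size alone (0.31, adjusted p = 0.0452) and without the filter (0.33, adjusted p = 0.0383) in limma. The high polysome value sat at the threshold and passed under 6 other settings or without WT gradient 2, with adjusted p from 0.00881 to 0.0470.

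Lsm7 was the least counted member, at 30.9, 28.5 and 44.8 CPM in the WT low polysome and at 15.5, 16.8 and 10.6 CPM in KO. Its change there, -1.31 ± 0.21 on the log2 scale (limma, adjusted p = 3.99e-05), was the largest decrease of the family. In the high polysome Lsm7 did not exceed 6.31 CPM in any library, and its change was -0.12 ± 0.31 (limma, adjusted p = 0.782).

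Lsm5 stood at 45.4, 49.2 and 36.9 CPM in the WT monosome and at 80.9, 64.3 and 80.5 CPM in KO. It was the other member that rose in the monosome, at 0.79 ± 0.27 on the log2 scale (limma, adjusted p = 0.0272), and this call was lost without WT gradient 1, 2 or 3 or KO gradient 3 (adjusted p up to 0.138). Its low polysome levels were spread from 23.5 to 67.9 CPM in KO, around the 34.6 to 49.2 CPM of WT. Lsm3 had overlapping ranges in all 3 fractions, with its lowest adjusted p in the low polysome (-0.29 ± 0.16, limma, adjusted p = 0.146).

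In counts, 2 members rose in the KO monosome (18.6% of all genes and 26.3% of the short genes rose) and none fell (20.1% and 16.2%). Without WT gradient 1, 2 or 3 or KO gradient 3, 1 member rose there. In the KO low polysome 5 members fell (24.3% of all genes and 49.8% of the short genes fell) and none rose (23.4% and 10.0%). In the KO high polysome 2 fell (21.1% and 39.6%), with none rising (25.3% and 8.12%). Groups without overlap numbered 3 in the monosome, KO above WT (25.7% of all genes), 5 in the low polysome, KO below WT (26.1%), and 3 in the high polysome, KO below WT (26.1%). Shares without overlap were not computed for the short genes. The medians of the 8 log2 changes were 0.02 for monosomes, -0.61 for the low and -0.21 for the high polysome, beside -0.03, -0.03 and -0.01 for all genes. For the short genes they were 0.14, -0.47 and -0.41.

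**Figure D3:**
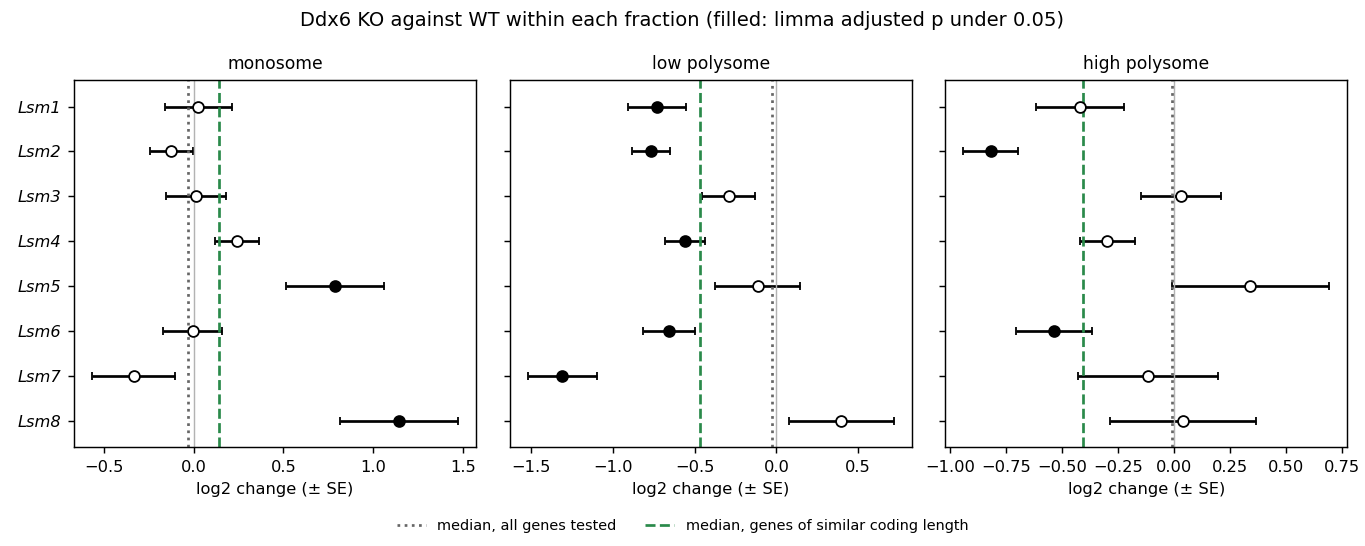
Log2 change of each ring gene in Ddx6 KO against WT in each fraction (point, estimate; bar, SE of the limma fit to 18 libraries; filled, adjusted p under 0.05), each panel with its own axis. Dotted and dashed lines mark the medians of all 12705 genes and of 677 genes of similar coding length. Filled points are Lsm5 and Lsm8 on the right in the monosome, 5 genes on the left in the low polysome, and Lsm2 and Lsm6 on the left in the high polysome.

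Averaged over the fractions, 5 members were lower in KO cells, namely Lsm1, Lsm2, Lsm4, Lsm6 and Lsm7, with log2 changes from -0.59 ± 0.15 (Lsm7; limma, adjusted p = 0.00170) to -0.20 ± 0.07 (Lsm4; adjusted p = 0.0172). Lsm8 was higher at 0.53 ± 0.19 (limma, adjusted p = 0.0191). Of all genes 31.5% were lower and 30.6% higher in this average, and of the short genes 45.8% were lower and 18.8% higher. The median log2 change was -0.29 for the ring genes and -0.26 for the short genes. The Lsm8 call was lost without WT gradient 3 or KO gradient 1 (0.33 and 0.34 on the log2 scale), the Lsm4 call without KO gradient 3 (-0.17), and the Lsm1 call at equal depth (-0.30, limma, adjusted p = 0.0501). Total RNA of these cells was not part of the libraries analysed here, so the average over fractions is not a level of total mRNA.

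The interaction terms compared the shape of the gradient between genotypes, as the KO difference between fractions less the WT difference. For the low polysome over the monosome all 8 estimates were below 0, from -0.31 ± 0.23 (Lsm3) to -0.98 ± 0.31 (Lsm7). Lsm2 (-0.64 ± 0.17, limma, adjusted p = 0.0349) and Lsm4 (-0.80 ± 0.17, limma, adjusted p = 0.0156) passed the test, while 2.39% of all genes and 19.6% of the short genes were called lower. The 304 genes called lower became 6 without KO gradient 3, 7 without WT gradient 1, and 38 without WT gradient 2. Of all calls 49.2% were increases, or 31.7% with scaling by library size alone. For Lsm7 the adjusted p was 0.0767 and for Lsm1 (-0.76 ± 0.26) it was 0.0930. Per gradient, log2(low polysome / monosome) of Lsm4 was 1.13, 0.56 and 0.90 in WT and 0.19, 0.18 and -0.17 in KO. That of Lsm2 was 0.97, 0.74 and 0.76 in WT and -0.04, 0.51 and 0.08 in KO. The KO gradients were below all WT gradients for Lsm1, Lsm2, Lsm4, Lsm5 and Lsm6, 5 of 8 members against 12.0% of all genes. The share without overlap was not computed for the short genes, of which 90.1% had an estimate below 0, against 48.5% of all genes. The Lsm4 call was lost without WT gradient 1 or KO gradient 3 (-0.68 and -0.70), and the Lsm2 call without any 1 gradient other than KO gradient 2 (-0.68 to -0.53 on the log2 scale). Without KO gradient 2, 4 members were called lower, with Lsm6 and Lsm7 added.

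For the high polysome over the monosome, which the study takes as a measure of translation level, Lsm2 (-0.69 ± 0.17, limma, adjusted p = 0.00918) and Lsm4 (-0.54 ± 0.18, limma, adjusted p = 0.0381) were again called lower, against 7.09% of all genes and 24.7% of the short genes. Of all calls in this comparison 60.1% were increases, or 40.3% with scaling by library size alone. Lsm8 had the lowest estimate at -1.10 ± 0.46 and did not pass the test (limma, adjusted p = 0.102), although it did in a limma fit to the compared groups only (adjusted p = 0.00470). Its per-gradient log2 ratios were -0.59, -0.29 and -0.49 in WT and -1.25, -1.19 and -2.22 in KO, without overlap and with KO gradient 3 lowest. Lsm3 (0.02 ± 0.24) and Lsm7 (0.22 ± 0.39) had estimates above 0, and that of Lsm3 changed sign with DESeq2 scaling, with library size alone and without the filter. Gradients did not overlap for 5 members, KO below WT (Lsm1, Lsm2, Lsm4, Lsm6 and Lsm8), against 17.8% of all genes. This share was not computed for the short genes, of which 84.3% had an estimate below 0, against 48.7% of all genes. The Lsm4 call was lost at equal depth and without WT gradient 1, WT gradient 3, KO gradient 2 or KO gradient 3, where the estimate was -0.56 to -0.48. The 901 genes called lower over all genes became 277 without KO gradient 3, 381 without WT gradient 2, 518 without KO gradient 2 and 589 without WT gradient 1.

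For the high over the low polysome no member was called by limma, while 3.39% of all genes were called higher (431) and 1.03% lower (131). These calls over all genes fell to 0 and 0 without KO gradient 3, to 37 and 4 without WT gradient 1, and to 67 and 3 without WT gradient 2, and ranged from 185 and 25 to 492 and 315 when any other gradient was left out. Of these calls 76.7% were increases, or 60.3% with scaling by library size alone. Lsm7 had the largest estimate, 1.19 ± 0.38, with an unadjusted p of 0.00461 (limma, adjusted p = 0.0715), and DESeq2 called it (adjusted p = 0.0287). It was the only member under an unadjusted p of 0.05. Its log2(high / low polysome) was -2.35, -2.65 and -2.73 in WT and -1.66, -1.93 and -0.74 in KO. The KO gradients were above all WT gradients for 3 members (Lsm1, Lsm4 and Lsm7), against 17.7% of all genes. They were below all WT gradients for no member, against 12.6% of all genes.

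**Figure D4:**
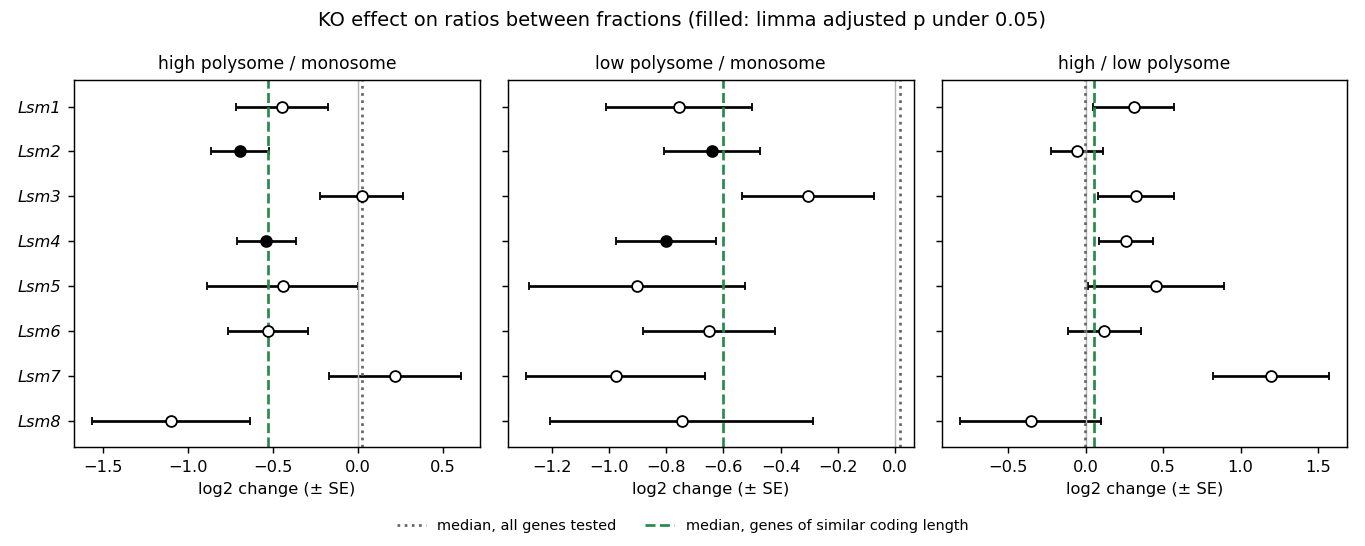
Interaction estimates of the 8 ring genes on the log2 scale (KO difference between fractions less the WT difference; bar, SE of the limma fit; filled, adjusted p under 0.05), each panel with its own axis, beside the medians of all genes (dotted) and of genes of similar coding length (dashed). Lsm2 and Lsm4 are filled in the first 2 panels, all 8 estimates are below 0 for low polysome over monosome, and no point is filled for high over low polysome.

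Coding length moved with these results. The median interaction for the low polysome over the monosome was -0.75 for the ring genes, -0.60 for the short genes and 0.02 for all genes. For the high polysome over the monosome the medians were -0.49, -0.53 and 0.02. When the trend on coding length was removed from each library, no ring gene was called in either interaction, and the values for the low polysome over the monosome became -0.01 for Lsm2 and -0.32 for Lsm4. The same step left 3 of 5 decreases in the KO low polysome and called Lsm8 higher there (0.85, limma, adjusted p = 0.0135). The rise of Lsm8 and that of Lsm5 of the KO monosome kept their calls. In WT cells the step left 5 of the 8 decreases from low to high polysome, it ended the call of Lsm6 from monosome to high polysome (-0.16, limma, adjusted p = 0.407), and it turned the sign of that step for Lsm2, Lsm4 and Lsm8, which became higher (0.42, 0.27 and 0.66 on the log2 scale, limma, adjusted p = 0.0113, 0.0499 and 0.0483).

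**Figure D5:**
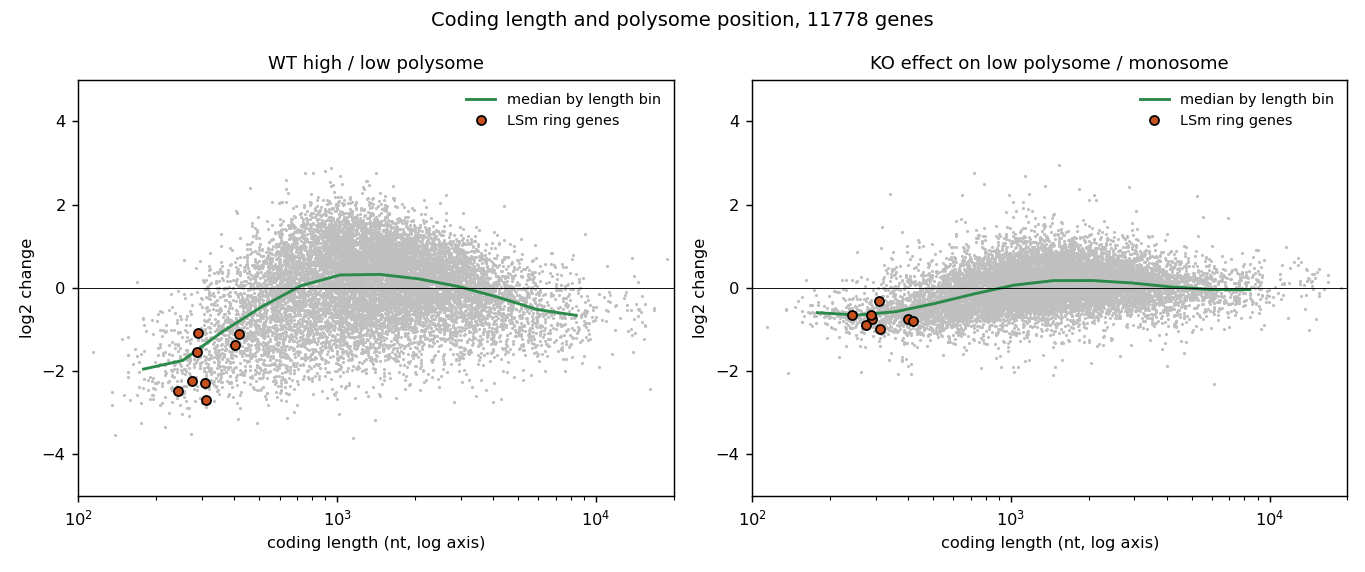
Coding length (nt, log axis) against the log2 change for 11778 tested genes with a coding length, of which 5 lie outside the axes. Left, WT high over low polysome, and right, the KO effect on low polysome over monosome. Grey points are genes, the green line is the median by length bin and orange points are the 8 ring genes, which lie at 243 to 417 nt and below 0 in both panels.

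The genes whose profile over the 18 libraries was nearest to that of Lsm1, by the root mean square difference of centred log2 CPM, were Ccny (0.159), Commd7 (0.176) and Srp19 (0.178). Nearest to Lsm8 were Tmem128 (0.209), Ndufa4 (0.211) and Bet1 (0.212). Among the other ring genes, Lsm2 was nearest to Lsm1, at place 312 of all genes (0.336), and Lsm1 was nearest to Lsm8, at place 555 (0.553). Lsm7 was the ring gene farthest from Lsm8, at place 6364 (0.969).

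Related gene groups were read the same way for the KO effect on the high polysome over the monosome. Of 8 Sm ring genes, whose proteins form the core of spliceosomal snRNPs, 4 were called lower and none higher, with a median of -0.73 and with calls from -1.04 ± 0.28 (Snrpn) to -0.51 ± 0.17 (Snrpe; limma, adjusted p = 0.0147 and 0.0435). Of 7 other LSm proteins, 1 was called lower, Lsm10, a subunit of the U7 snRNP that processes histone mRNAs (-0.64 ± 0.21, limma, adjusted p = 0.0424), and the median was -0.38. Of 9 genes of decapping and 5′ decay, 1 was called higher, the decapping scaffold Edc4 (1.11 ± 0.28, limma, adjusted p = 0.00990), none lower, and the median was -0.03. Of 22 genes of U6 snRNA and the tri-snRNP, 9 were called higher and 3 lower with a median of 0.44. Their calls reached from -0.86 ± 0.27 for Usb1, which trims the 3′ end of U6, to 1.45 ± 0.24 for Prpf8, the core protein of the U5 snRNP (limma, adjusted p = 0.0337 and 0.000798). Of all genes, 10.7% were called higher and 7.09% lower, and the median was 0.02. Of the short genes, 0.591% were called higher and 24.7% lower, and the median was -0.53. The coding length of the genes in these lists was not taken into account.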

How the data were processed

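Polysome fractions of WT and Ddx6 KO ESCs were sequenced as 3′ end libraries (QuantSeq 3′ FWD). The deposited values are counts per gene in the 18 libraries. Per the submitters' processing notes and the file headers, the authors made these counts with cutadapt 1.14, STAR 2.5.3a (mm10) and strand-specific featureCounts 1.5.3 on Gencode M14 basic without rRNA, from uniquely mapped reads. No molecular identifiers are mentioned, so PCR copies may be counted. The 92 spike-in rows, 0.000348% to 0.00217% of gene counts, entered neither library sizes nor tests. Gene models came from Gencode M21 (GRCm38), and 193 of 51467 identifiers did not match it.

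Genes with at least 3 CPM in at least 3 libraries were kept (12705 genes, 99.6% of counts), scaled by TMM with edgeR 4.0.16. The 6 group means were then estimated in 1 limma 3.58.1 voom model (R 4.3.3) of all 18 libraries with 12 residual degrees of freedom. The study's methods name limma, this filter and an interaction term. They give no scaling or weighting, and TMM, voom and a joint model were used here. A gene was called when its two-sided p, adjusted by Benjamini-Hochberg across the 12705 genes, was under 0.05. With TMM a change is relative to the bulk of genes in those libraries. Errors are SE of the fit, and p-values measure the spread of libraries within the 6 groups, which may in part be technical. The main fit took the 3 fractions of a gradient as independent, so in the average over the fractions libraries, not gradients, served as replicates. With a block by gradient that average called 3739 genes higher and 3785 lower, in place of 3894 and 4003. No pair of replicate libraries agreed within counting noise. Ratios of single gradients used a pseudocount of 0.5 CPM, which pulls low ratios toward 0. Near copies were sought with BLAST at 90% identity or more over 50 bases or more. Tests were checked on simulated counts.

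Named genes were the 8 members, Ddx6, the 3 genes nearest Lsm1 and Lsm8, and in each related list the called genes with the highest and lowest KO effect on high polysome over monosome. The members and lists were chosen with earlier results of these data known. The Lsm8 to Lsm1 ratio and the addition of near copies were chosen after values had been seen. The labels say that the 3 fractions of a gradient came from 1 sample, and deviations of fractions of 1 gradient correlated at -0.173 to 0.464, with 6 of 18 pairs over 0.1. Alternatives were other scalings, no filter, edgeR's quasi-likelihood test, DESeq2 1.42.0, replicate blocks, removal of a coding-length trend (lowess), equal depth (2543617 counts), the compared groups only, and leaving out each gradient.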

Additional observations from a re-analysis of the deposited data

Results flagged for a closer look

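Lsm2 and Lsm4 were singled out because their difference between fractions was not the same in WT and KO cells, by the interaction term of limma. For the high polysome over the monosome the term was -0.69 for Lsm2 (adjusted p = 0.00918) and -0.54 for Lsm4 (adjusted p = 0.0381), limma, on the log2 scale. For the low polysome over the monosome it was -0.64 for Lsm2 (adjusted p = 0.0349) and -0.80 for Lsm4 (adjusted p = 0.0156), limma. In each case the 3 KO gradients were below the 3 WT gradients, as they were for 17.8% (high polysome) and 12.0% (low polysome) of all genes. That share was not computed for genes of similar coding length. Of the genes of similar coding length, 24.7% and 19.6% were called lower. No call remained after removal of the coding-length trend. All but that of Lsm2 for the high polysome over the monosome were also lost when certain single gradients were left out. The 18 libraries held 1006 counts on spike-in sequences, which no comparison used, and the labels mention no addition of spike-ins.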

How the results depend on the processing

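Of 1352 recomputed changes of single ring genes, 1210 kept their direction and side of the threshold, 35 lost a call, 40 gained one and 67 changed sign. The sign changes included 2 for changes that had been called, both after removal of the coding-length trend. Limits are 3 gradients per genotype, clone 1 with 1 gradient, the low counts of Lsm5 and Lsm7 with their pseudogenes, and the shift also seen in short coding sequences. The cause of the changes below was not tested.

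With the coding-length trend removed, 3 ring genes were called higher and 4 lower for WT high polysome against monosome (0 and 6 before). For WT low polysome against monosome the 3 rises stayed called and 1 decrease, that of Lsm3, was added. For WT high against low polysome 5 were lower. KO against WT gave 1 higher and 3 lower in the low polysome, and 1 higher and 1 lower in the high polysome. The average over the fractions gave 2 higher and 3 lower, and both KO effects over the monosome gave 0 lower. The signs that turned under this setting were, on the log2 scale, WT high polysome against monosome of Lsm2 (0.42), Lsm4 (0.27) and Lsm8 (0.66), WT high against low polysome of Lsm8 (0.36), KO against WT in the monosome of Lsm1 (-0.19) and Lsm3 (-0.16), in the low polysome of Lsm3 (0.13) and Lsm5 (0.38), in the high polysome of Lsm4 (0.0083) and Lsm7 (0.25), and on average of Lsm3 (0.12). The KO effect on high polysome over monosome turned for Lsm1 (0.087), Lsm5 (0.10) and Lsm6 (0.019), on low polysome over monosome for Lsm3 (0.30) and Lsm6 (0.042), and on high over low polysome for Lsm6 (-0.023).

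For KO against WT in the high polysome, 4 ring genes were called lower with DESeq2 size factors, library size alone, DESeq2, the block by number and the compared groups only, in place of 2. On average over the fractions 2 were called higher with edgeR and with DESeq2, in place of 1. The KO effect on high polysome over monosome called 1 ring gene lower at equal depth. With library size alone Lsm6 was added to those called lower there (-0.65, limma, adjusted p = 0.0357). Lsm6 was likewise added for low polysome over monosome (-0.72, limma, adjusted p = 0.0389), and at equal depth Lsm7 was added (-1.255, adjusted p = 0.0405). The KO effect on low polysome over monosome called 4 lower with DESeq2 and 1 with the compared groups only, and that on high over low polysome called 1 higher with DESeq2. The average over fractions uses all groups, so it was not run on compared groups only. With the compared groups only, Lsm8 gained a call for the KO effect on high polysome over monosome (-1.11) and for WT high polysome against monosome (-0.45). In the KO monosome 3 ring genes were called higher with library size alone and without the filter, Lsm4 being added. The comparisons between fractions within KO cells were not recomputed under the alternatives. Adding the near copies turned no sign and changed no call. It could hardly have done so, because the copies held few counts (87 for Gm10074 and 83 for Gm10146). Reads that fit both copies were not in the table, so this step does not address the undercount.

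The remaining sign changes were of values that passed no test. With DESeq2 size factors they were Lsm3 in the KO monosome (-0.0051), Lsm3 (-0.038) and Lsm8 (-0.029) in the KO high polysome, and Lsm3 for the KO effect on high polysome over monosome (-0.033). With DESeq2 they were Lsm3 in the same 3 comparisons (-0.0057, -0.036 and -0.031). With library size alone they were Lsm6 in the KO monosome (0.060), Lsm3 (-0.025) and Lsm8 (-0.017) in the KO high polysome, and Lsm3 for the KO effect on high polysome over monosome (-0.10). Without the filter they were Lsm3 (0.0061) and Lsm5 (0.046) for WT low polysome against monosome, Lsm6 in the KO monosome (0.091), and Lsm3 for the KO effect on high polysome over monosome (-0.092). With edgeR they were Lsm6 in the KO monosome (0.013) and Lsm5 in the KO low polysome (0.0065). At equal depth they were Lsm3 (-0.011) and Lsm6 (0.036) in the KO monosome, Lsm5 in the KO low polysome (0.031), and Lsm7 for the KO effect on high polysome over monosome (-0.41). With the compared groups only, Lsm6 turned in the KO monosome (0.0090).

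When 1 gradient was left out in turn, the numbers of ring genes called ranged from 3 to 5 higher for WT low polysome against monosome, 7 to 8 lower for WT high against low polysome, 1 to 2 higher in the KO monosome, 5 to 6 lower in the KO low polysome, 2 to 3 lower in the KO high polysome, 0 to 2 higher and 4 to 5 lower on average, 1 to 2 lower for the KO effect on high polysome over monosome, and 0 to 4 lower for that on low polysome over monosome (0 without WT gradient 1 or KO gradient 3). Sign changes fell in these ranges. WT low polysome against monosome ranged from -0.22 to 0.12 for Lsm3 and from -0.13 to 0.035 for Lsm5. In the KO monosome the ranges were -0.048 to 0.097 (Lsm1), -0.041 to 0.071 (Lsm3) and -0.16 to 0.12 (Lsm6). In the KO low polysome they were -0.48 to 0.23 (Lsm5) and -0.088 to 0.75 (Lsm8), and in the KO high polysome -0.17 to 0.18 (Lsm3), -0.31 to 0.028 (Lsm7) and -0.18 to 0.33 (Lsm8). The average of Lsm3 ranged from -0.19 to 0.012. The KO effect on high polysome over monosome ranged from -0.18 to 0.22 (Lsm3) and -0.11 to 0.48 (Lsm7), and that on high over low polysome from -0.094 to 0.74 (Lsm5), -0.022 to 0.35 (Lsm6) and -0.78 to 0.072 (Lsm8).

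A replicate block by gradient, with an estimated correlation of 0.0757 between the fractions of 1 gradient, gave the same counts of ring genes called in the 10 comparisons for which alternatives were run, such as 2 lower for the KO effect on low polysome over monosome and 2 lower for that on high polysome over monosome. WT and KO gradients share only a number, and the deviations of same-numbered samples correlated at -0.485 to 0.243 (3 of 9 over 0.1). The block by number gave 3 lower for the KO effect on low polysome over monosome.

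Over all genes, another scaling changed the balance of calls for the KO effects. Of the genes called for high polysome over monosome, 60.1% were higher with TMM, 40.3% with library size alone (901 and 1386 lower) and 49.4% with DESeq2 (1360 lower). For low polysome over monosome 49.2% were higher with TMM, 31.7% with library size alone (304 and 494 lower) and 76.2% after removal of the length trend (125 higher and 39 lower), while DESeq2 called 546 higher and 527 lower, equal depth 197 lower, and the compared groups only 164 higher and 125 lower. For high over low polysome the share was 76.7% with TMM, 60.7% with DESeq2 size factors (205 lower), 60.3% with library size alone (212 lower) and 52.2% with DESeq2 (489 lower). There the gradient block called 215 lower, equal depth 200 higher and 69 lower, the compared groups only 188 higher and 32 lower, and the fit without a length trend 34 higher and 14 lower, which for high polysome over monosome gave 475 higher and 318 lower. Without the filter the median of all genes moved by over 0.1 on the log2 scale in 7 comparisons, most for WT high polysome against monosome (-0.72, with 10866 genes lower and 28.8% of calls higher), and 3929 genes were lower in the KO monosome.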
